A study of Rattus norvegicus with 23 samples.

Results

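Pyruvate dehydrogenase kinases and uncoupling proteins help to set which fuel mitochondria burn and how they handle it. The 6 genes described here are the kinases Pdk1, Pdk2, Pdk3 and Pdk4 and the uncoupling proteins Ucp2 and Ucp3. They were picked by gene name from the 30562 genes of the deposited count and FPKM tables, and all 6 were found and had enough counts to be tested. Bulk polyadenylated RNA came from the femora of female Wistar rats, in 23 libraries and 5 groups. MetOP, the model named in the labels, was made by feeding a high-fat diet and giving L-NAME, which blocks nitric oxide synthase. The MetOP combination group (n = 5) received semaglutide and PYY, the MetOP semaglutide group (n = 5) semaglutide, the MetOP PYY group (n = 4) PYY, and the MetOP saline group (n = 5) saline. The healthy control group (n = 4) has the words standard, saline and oLN in its titles. Semaglutide activates the GLP-1 receptor, and PYY stands here for PYY3-36, a peptide of the gut whose main receptor is Y2. The treatment labels of the 4 PYY libraries end in different numbers (PYY3-36, PYY3-37, PYY3-38 and PYY3-39) although their titles share 1 name. The titles of all MetOP libraries also hold the letters lfd, which no label explains, so the diet at sampling is not known. Age, dose and duration are not given in the labels, and the batch label is 1 throughout. No label says that each library is a separate animal, so p-values measure only the spread between these samples, which may be technical.

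The pyruvate dehydrogenase complex turns pyruvate into acetyl-CoA inside mitochondria and so commits glucose carbon to oxidation. The Pdks phosphorylate its E1 alpha subunit and switch it off, which spares glucose and leaves fatty acids as the fuel. Pdk4 is the member that fasting, fatty acids and glucocorticoids raise, largely through PPARs and FOXO factors, and it is abundant in skeletal muscle and heart. Pdk2 is the most widely expressed member, Pdk1 is a target of the hypoxia factor HIF-1, and Pdk3 has the narrowest tissue range. Ucp2 and Ucp3 are carriers of the inner mitochondrial membrane, related to Ucp1 of brown fat, with Ucp2 found broadly and high in immune cells and Ucp3 found mainly in skeletal muscle and brown fat. A femur holds bone-forming cells, marrow and blood cells, fat and vessels, and femoral samples can carry attached muscle. In such bulk RNA, fewer cells of a type and less RNA per cell cannot be told apart.

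In the mRatBN7.2 coordinates of the deposited table, Pdk1 (ENSRNOG00000001517) lies on chromosome 3 from 56705871 to 56733038 on the plus strand, and Pdk2 (ENSRNOG00000004172) on chromosome 10 from 79972556 to 79987085 on the minus strand. Pdk3 (ENSRNOG00000012513) lies on chromosome X from 58486554 to 58553557 and Pdk4 (ENSRNOG00000009565) on chromosome 4 from 33589799 to 33601850, both on the minus strand. Ucp3 (ENSRNOG00000017716, 154815777 to 154828762) and Ucp2 (ENSRNOG00000017854, 154839209 to 154845611) are neighbours on the plus strand of chromosome 1. Their annotated bodies are 10446 bases apart with 0 genes between them. None of the 6 overlaps another annotated gene. The labels leave the strand setting unclear, and its effect on the counts was not tested.

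The promoters of 4 genes are shown because these form the pairs of members whose levels were most alike across libraries, Pdk4 with Ucp3 and Ucp2 with Pdk3, and because Ucp2 and Ucp3 are neighbours that did not follow each other. All 6 members matched a RefSeq promoter of build GRCr8, which runs from 250 bases before to 50 bases after the gene start. The 4 windows, 5′ to 3′ on each gene's own strand, are Pdk4 (chr4:34568280-34568579, minus strand), Ucp3 (chr1:164227660-164227959, plus strand), Pdk3 (chrX:62547322-62547621, minus strand) and Ucp2 (chr1:164251123-164251422, plus strand). Capitals mark any of 7 motifs on either strand.
Pdk4: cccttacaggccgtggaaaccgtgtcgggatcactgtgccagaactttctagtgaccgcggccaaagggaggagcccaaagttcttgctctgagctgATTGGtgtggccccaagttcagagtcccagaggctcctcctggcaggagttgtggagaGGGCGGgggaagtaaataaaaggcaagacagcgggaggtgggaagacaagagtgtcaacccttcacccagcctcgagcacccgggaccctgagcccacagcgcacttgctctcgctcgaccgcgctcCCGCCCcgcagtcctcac
Ucp3: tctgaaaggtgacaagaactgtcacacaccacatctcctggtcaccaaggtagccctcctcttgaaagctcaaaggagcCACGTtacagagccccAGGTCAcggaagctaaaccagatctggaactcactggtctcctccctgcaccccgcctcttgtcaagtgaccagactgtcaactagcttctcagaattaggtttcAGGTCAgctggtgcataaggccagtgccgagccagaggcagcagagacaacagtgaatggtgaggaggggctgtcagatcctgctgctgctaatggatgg
Pdk3: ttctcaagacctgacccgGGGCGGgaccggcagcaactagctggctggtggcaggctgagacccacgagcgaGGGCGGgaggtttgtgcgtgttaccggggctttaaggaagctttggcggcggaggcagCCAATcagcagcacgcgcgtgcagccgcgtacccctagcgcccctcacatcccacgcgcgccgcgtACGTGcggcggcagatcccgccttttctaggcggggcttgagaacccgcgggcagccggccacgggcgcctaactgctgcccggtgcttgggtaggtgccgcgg
Ucp2: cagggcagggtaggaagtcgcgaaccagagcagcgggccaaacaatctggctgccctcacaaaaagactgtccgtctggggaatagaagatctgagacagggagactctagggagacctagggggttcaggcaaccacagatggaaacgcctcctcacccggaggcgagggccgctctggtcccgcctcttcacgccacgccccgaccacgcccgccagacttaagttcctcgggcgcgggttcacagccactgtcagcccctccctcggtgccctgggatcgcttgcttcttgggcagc
The motifs were the GC box GGGCGG, found in 33.1% of the 33469 RefSeq promoters, CCAAT in 37.5%, the TATA box TATAAA in 14.2%, the hypoxia response core ACGTG in 19.3%, the nuclear receptor half-site AGGTCA in 16.2%, the FOXO site GTAAACA in 3.78% and the E-box CACGTG in 6.42%. An E-box always contains ACGTG as well. The Ucp3 window held 2 half-sites, beginning at -155 and -50 relative to the start, and 1 hypoxia core. The Pdk4 window held 2 GC boxes and 1 CCAAT, and the Pdk3 window 2 GC boxes, 1 CCAAT and 1 hypoxia core. The Ucp2 window held 0 of the 7 motifs. Of the windows not printed, Pdk1 held 2 GC boxes and 2 hypoxia cores, at 22 and 31, and Pdk2 held 3 CCAAT and 1 E-box. No member window held TATAAA or GTAAACA, and a match or its absence in 300 bases describes these letters only.

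Library totals were between 19.25 and 40.65 M (M as in CPM, counts per M), of which the 37 mitochondrially encoded genes took 46.1 to 83.9%, leaving 4.28 to 16.1 M for all other genes. Raw counts spanned 71 to 858 for Pdk1, 143 to 3957 for Pdk2, 18 to 469 for Pdk3, 755 to 42010 for Pdk4, 334 to 8650 for Ucp2 and 60 to 2103 for Ucp3, so counting error is small beside the differences between libraries for all but the lowest Pdk3 values. Bone RNA was present under the femoral label, and Col1a1, Col1a2, Bglap and Ibsp were among the 9 of 10 bone-forming cell markers with counts in all 23 libraries, and Phex was at 0 in 7. Skeletal muscle RNA was also present, with Acta1 at 11657 to 438302 counts. The 18 tested muscle markers, none of them at 0 in any library, took 0.885 to 20.1% of the non-mitochondrial counts in the combination group, 6.60 to 19.9% in the semaglutide group, 2.10 to 11.5% in the PYY group, 7.59 to 14.5% in the saline group and 9.69 to 17.0% in healthy controls. The 20 leukocyte markers took 0.0257 to 2.21% with the combination, 0.0340 to 0.729% with semaglutide, 0.122 to 0.564% with PYY, 0.301 to 0.588% with saline and 0.173 to 0.476% in healthy controls. Leukocyte markers at 0 in some libraries included Cd3e in 12, Itgam and Elane in 2 each and Cd79a and Spi1 in 1 each. Combination A320 and PYY A216 stood apart with the lowest muscle levels, and A320 also had the highest leukocyte level. No pair of libraries within a group agreed within counting noise (lowest chi-square per degree of freedom 46.7 over 42 pairs), so none appeared to be a repeat deposit of another. This does not show that they came from separate animals.

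Pdk4 and Ucp2 were the most abundant of the 6 per unit of transcript length, and Pdk3 the least. On the FPKM scale, the median over 23 libraries was 88.3 for Pdk4 (range 7.48 to 317), 64.8 for Ucp2 (7.79 to 169), 22.6 for Pdk2 (1.87 to 58.4), 11.6 for Ucp3 (0.806 to 44.9), 4.42 for Pdk1 (1.76 to 10.8) and 2.82 for Pdk3 (0.272 to 6.48). Pdk4 FPKM was above that of Pdk1, Pdk2, Pdk3 and Ucp3 in 23 of 23 libraries. Pdk4 was above Ucp2 in 15 of 23, and Pdk1 above Pdk3 in 14 of 23, so neither pair of neighbours had a settled order. Ucp2 was above Pdk2 in 17 of 23 libraries and Pdk2 above Ucp3 in 20 of 23. Pdk2 stood above Ucp2 in 4 of 5 semaglutide libraries, against 1 of 5 combination, 1 of 4 PYY, 0 of 5 saline and 0 of 4 healthy control libraries. Ucp1, the thermogenic protein of brown fat, had 5 counts in saline A224 (0.103 FPKM) and 0 in the other 22 libraries. The limit set by a count of 0 is 3 counts, which is 0.0738 to 0.156 CPM (counts per M) of a library's total and covers counting error only.

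Pdk4 was the largest of the Pdks in every library. Its share of the summed FPKM of the 4 Pdks ran from 39.8 to 85.9% with a median of 68.3%. Group means were 65.2 ± 12.3% (SD) in the combination group, 72.6 ± 8.91% with semaglutide, 67.6 ± 20.2% with PYY, 68.1 ± 14.1% with saline and 63.4 ± 12.99% in healthy controls. The libraries of all groups overlapped in this share. The lowest share, 39.8%, was in PYY A216, where Pdk3 took 34.5%, and Pdk3 took 24.5% in combination A320. The Pdk3 share averaged 7.29 ± 10.3% in the combination group, 1.05 ± 1.28% with semaglutide, 11.01 ± 15.8% with PYY, 5.18 ± 3.57% with saline and 2.50 ± 1.69% in healthy controls.

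The split between the uncoupling proteins varied far more between MetOP libraries than between healthy ones. The Ucp3 share of Ucp2 plus Ucp3 FPKM was 40.7, 60.3, 5.12, 11.2 and 0.475% in the combination libraries and 59.9, 34.6, 18.996, 22.2 and 64.7% in the semaglutide libraries. It was 44.1, 1.91, 9.69 and 43.7% in the PYY libraries, 14.6, 31.2, 8.67, 3.26 and 40.9% in the saline libraries and 10.2, 16.1, 11.7 and 11.7% in the healthy controls. Every group given in these sentences follows library number, namely combination A248, A251, A253, A318 and A320, semaglutide A238, A240, A241, A242 and A243, PYY A215, A216, A219 and A220, saline A224, A226, A229, A232 and A265, and healthy A387, A389, A390 and A392. All 5 semaglutide libraries lay above all 4 healthy controls, at 40.1 ± 21.2% against 12.4 ± 2.57% (SD), and no test was made on this share. This pair of groups was not among the planned comparisons and was picked out after the values were seen. How often other genes or shares separate these groups was not measured, so the separation is a description only. Some marker levels differed between the same groups, with means of 2.30 log2 CPM with semaglutide and 3.40 in healthy controls for leukocyte markers, 4.42 and 5.79 for erythroid markers, and 3.21 and 5.30 for bone-forming cell markers. Muscle markers averaged 10.60 with semaglutide and 10.62 in healthy controls, and adipocyte markers 1.61 and 0.99. What part these levels have in the share was not tested.

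**Figure D1:**
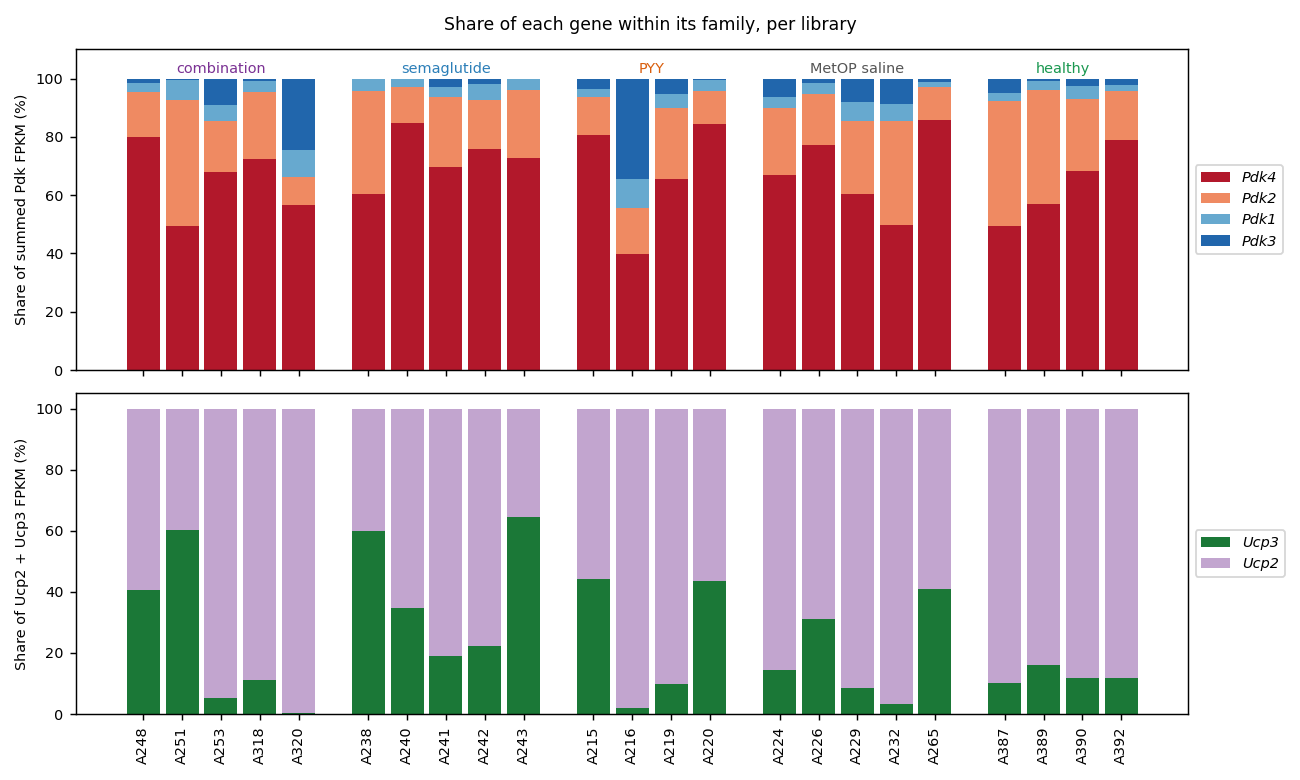
Share of each gene within its family in each of the 23 libraries, in percent of summed FPKM, with the 4 Pdks above and Ucp2 with Ucp3 below. Pdk4 is the largest Pdk in every library, Pdk3 reaches 34.5% in PYY A216, and the Ucp3 share runs from 0.475% in combination A320 to 64.7% in semaglutide A243.

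No member passed the test in any of the 8 comparisons. Each was tested with edgeR's quasi-likelihood test fitted over all 23 libraries and 15271 genes, and called at a Benjamini-Hochberg adjusted p under 0.05. A log2 fold change is given below only where it exceeds its standard error (SE), as it did for 20 of the 48 pairs of member and comparison. For edgeR the SE was derived from the test, as the absolute log2 fold change divided by the square root of the F statistic. Of all 15271 genes, 0% were called in 7 of the comparisons and 0.00655% in the comparison of semaglutide with PYY, which is 1 gene, the collagen receptor Ddr2 (log2 fold change -2.43 ± 0.32, edgeR adjusted p = 0.0014), named after its values were seen. Genes with an unadjusted p under 0.05 numbered 1000 for saline against healthy controls, 1744, 740 and 468 for semaglutide, PYY and the combination against saline, 863 for the combination against semaglutide, 953 for the combination against PYY, 2575 for semaglutide against PYY and 700 for the interaction. DESeq2 called 47, 89, 3, 2, 12, 10, 487 and 3 genes in the same order and limma voom 1 gene in each of the comparisons of the combination and of semaglutide with PYY, with 0 members among them. The median log2 fold change of all genes ran from -0.0646 to 0.0528 over the comparisons, and the common biological coefficient of variation was 69.9%. Comparisons that use the same saline or semaglutide libraries are not independent of each other.

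**Figure D2:**
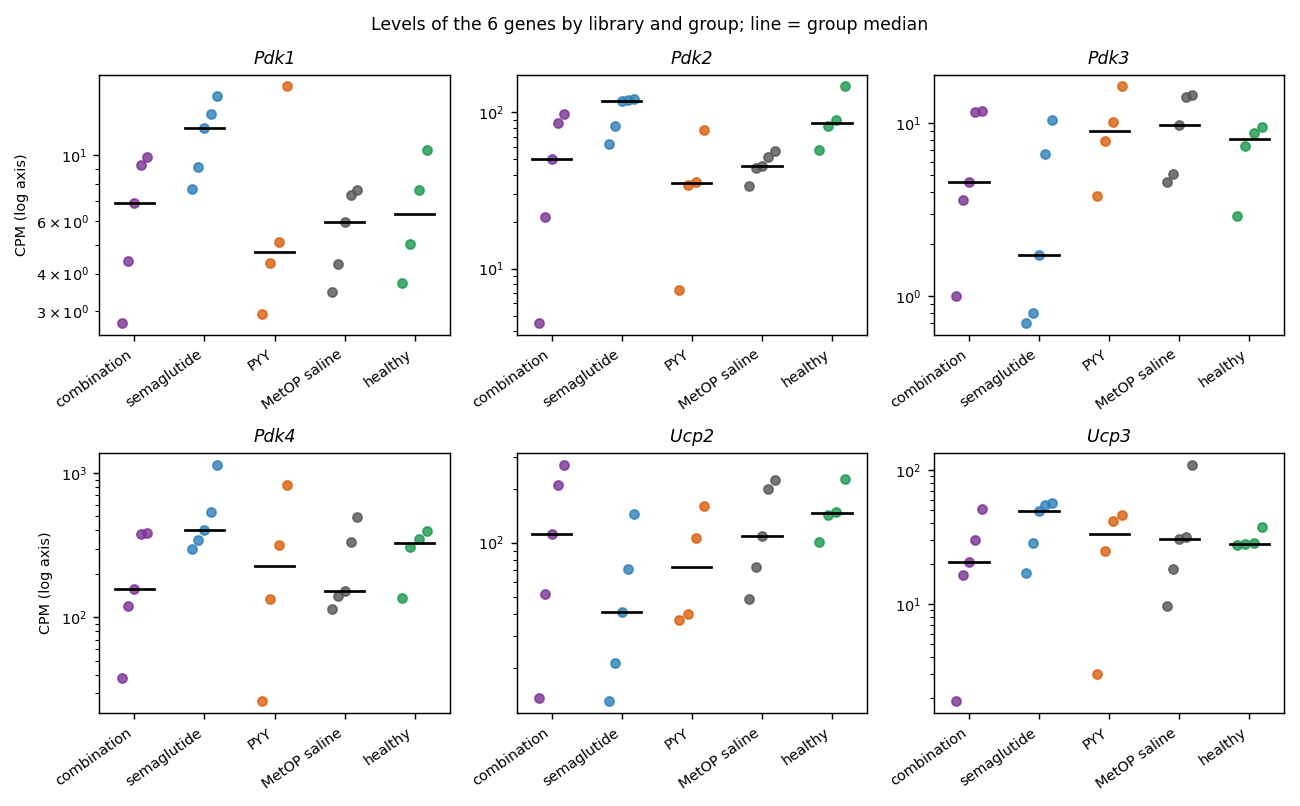
Level of each gene in counts per M (CPM, log axis) in each library, by group from combination to healthy control, with the group median as a line. Pdk2 in saline libraries lies below all semaglutide and all healthy control libraries but overlaps PYY and combination libraries. Pdk1 in saline libraries also lies below all semaglutide ones, while Pdk4, Ucp2 and Pdk3 overlap between groups. Of all tested genes, 2.78% separated saline from healthy controls and 4.47% semaglutide from saline, in either direction.

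The model was first set against healthy femora. Pdk2, the broadly expressed kinase, was the 1 member whose groups did not overlap, and the other 5 differed by less than their SE. Pdk2 was 33.8, 51.5, 43.8, 56.6 and 45.3 CPM in MetOP saline libraries, against 82.1, 147, 88.9 and 57.6 CPM in healthy controls. All 5 saline libraries lay below all 4 healthy ones, a separation that 2.78% of all tested genes showed in either direction. The means were 46.2 ± 8.59 and 93.8 ± 37.8 CPM (SD, n = 5 and 4), with a log2 fold change of -1.02 ± 0.58 (edgeR adjusted p = 0.857). With the muscle level of each library as a covariate it was -0.63. All 18 tested muscle markers had lower estimates in saline libraries (median log2 fold change -0.41), and what part they have in the Pdk2 value was not tested beyond that covariate.

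Other genes of the pathway were followed as lists. Of the 8 genes of the pyruvate dehydrogenase complex and its phosphatases, 7 had lower estimates in MetOP saline than in healthy femora (median -0.31), with 0 called. Of 12 genes of pyruvate supply 10 were lower (median -0.37), and of 18 fatty acid genes known as PPAR targets 15 were lower (median -0.34), again with 0 called. All 6 glucocorticoid response genes had higher estimates (median 0.65, 0 called). Per1, a clock gene that glucocorticoids induce, averaged 14.5 ± 2.62 CPM in saline libraries and 7.83 ± 3.31 CPM in healthy controls, a log2 difference of 0.89 ± 0.40 (edgeR adjusted p = 0.745). Errfi1, another such gene, differed by 0.71 ± 0.37 (edgeR adjusted p = 0.804). Tfam, which maintains mitochondrial DNA, averaged 22.6 ± 5.09 CPM in saline libraries and 35.4 ± 4.10 CPM in healthy controls (log2 -0.64 ± 0.30, edgeR adjusted p = 0.751).

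Semaglutide libraries had the highest mean Pdk1, Pdk2 and Pdk4 and the lowest mean Pdk3 and Ucp2 of all 5 groups. Against saline, 5 of the 6 members differed by more than their SE, and 0 of 6 passed the test. Pdk1, the hypoxia-linked kinase, was 9.08, 15.8, 7.69, 13.7 and 12.3 CPM in semaglutide libraries, against 3.47, 7.33, 7.62, 5.97 and 4.30 CPM in saline libraries. The lowest semaglutide library was just above the highest saline one. The means were 11.7 ± 3.34 and 5.74 ± 1.83 CPM (SD, n = 5 each), a log2 fold change of 1.03 ± 0.43 (edgeR unadjusted p = 0.0237, adjusted p = 0.394). Pdk1 was the 1 member of 6 with an unadjusted p under 0.05, a mark that 11.4% of all genes reached here.

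Pdk2 was 121, 118, 81.8, 62.5 and 122 CPM in semaglutide libraries, against the saline values above. Its groups did not overlap either, at 101 ± 27.2 and 46.2 ± 8.59 CPM, and the log2 fold change was 1.13 ± 0.55 (edgeR adjusted p = 0.437). Pdk1 and Pdk2 were thus 2 of 6 members without overlap, against 4.47% of all genes. Fitted with only the semaglutide and saline libraries, Pdk1 gave 1.02 ± 0.30 and Pdk2 1.10 ± 0.21 (edgeR adjusted p = 0.0979 and 0.0759). Neither passed the test there. Not every SE was smaller in that fit, since that of Pdk3 was 0.71, against 0.68 with all 23 libraries. Pdk4, the fasting-induced kinase, was 296, 1143, 342, 404 and 541 CPM in semaglutide libraries, against 142, 333, 154, 113 and 496 CPM in saline libraries. The groups overlapped, with A240 far above the rest and saline A265 and A226 within the semaglutide range. Its log2 fold change was 1.14 ± 0.68 (edgeR adjusted p = 0.519), and 0.68 ± 0.70 without A240.

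Ucp2 and Pdk3 had lower means with semaglutide. Ucp2 was 13.1, 71.6, 144, 40.9 and 21.3 CPM in semaglutide libraries, against 73.2, 48.4, 222, 198 and 109 CPM in saline libraries. A240 and A241 lay among the saline values and the groups overlapped (log2 -1.16 ± 0.67, edgeR adjusted p = 0.504). Pdk3 was 0.705, 1.73, 10.5, 6.66 and 0.802 CPM in semaglutide libraries, against 9.83, 5.08, 14.6, 14.2 and 4.60 CPM in saline libraries. A238, A240 and A243 were below every saline library while A241 and A242 were within their range (log2 -1.24 ± 0.68, edgeR adjusted p = 0.479). Without A241 the differences were -1.83 for Ucp2 and -1.96 for Pdk3. Other omissions made them smaller, down to -0.88 for Ucp2 without saline A229 and -0.96 for Pdk3 without semaglutide A238. Ucp3, the muscle uncoupling protein, differed by less than its SE, at 28.3, 55.1, 49.2, 17.0 and 56.7 CPM in semaglutide libraries, against 18.2, 31.8, 30.7, 9.70 and 109.8 CPM in saline libraries. Saline A265 alone lay above all 5 semaglutide values.

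Marker RNA differed in the same comparison. All 18 muscle markers had higher estimates with semaglutide (median log2 fold change 0.69), 16 of 20 leukocyte markers lower (-0.67), 9 of 10 erythroid markers lower (-1.58), 8 of 10 adipocyte markers lower (-0.73) and 10 of 10 bone-forming cell markers lower (-2.33), with 0 called in each list. For adipocyte markers the mean level in log2 CPM went the other way, at 1.61 with semaglutide and 1.48 with saline. With the leukocyte level as a covariate, chosen after the data were seen, the log2 differences were 0.62 for Pdk1, 0.51 for Pdk2, 0.71 for Pdk4, -0.49 for Ucp2 and -0.58 for Pdk3. With the muscle level as a covariate they were 0.99, 0.85, 1.09, -0.92 and -1.02 in that order. These levels come from the same libraries as the members.

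Around the kinases, 7 of 8 genes of the pyruvate dehydrogenase complex list (median log2 fold change 0.57), 11 of 12 pyruvate supply genes (0.55) and 16 of 18 PPAR targets (0.98) had higher estimates with semaglutide than with saline, with 0 called. So had 5 of 6 carriers related to the uncoupling proteins (0.52) and 9 of 14 regulators (0.55), while 4 of 6 glucocorticoid response genes were lower (-0.31), again with 0 called. The regulator Pparg, the PPAR of fat cells, averaged 1.37 ± 0.384 CPM with semaglutide and 3.82 ± 2.09 CPM with saline (log2 -1.47 ± 0.48, edgeR adjusted p = 0.389). Rxra, the partner of PPARs on DNA, averaged 5.44 ± 2.51 and 2.41 ± 0.826 CPM in the same groups (log2 1.17 ± 0.42, edgeR adjusted p = 0.393). Slc25a5, an ADP/ATP carrier of the family that holds the uncoupling proteins, averaged 18.8 ± 3.35 and 34.3 ± 7.27 CPM (log2 -0.87 ± 0.30, edgeR adjusted p = 0.389).

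In PYY against saline, all 6 members differed by less than their SE. The spread among the 4 PYY libraries was wide, since A216 held the lowest and A220 the highest Pdk1, Pdk2 and Pdk4. Pdk4 was 318.4, 26.3, 134 and 832 CPM in PYY libraries and Pdk2 was 35.8, 7.29, 34.4 and 77.3 CPM, against the saline values above. Pdk1 was 5.09, 2.93, 4.35 and 17.0 CPM, and Ucp3 was 46.1, 2.998, 25.0 and 41.7 CPM, the lowest of them in A216. Ucp2 was 40.1, 106, 161 and 36.9 CPM and Pdk3 was 10.2, 16.3, 7.92 and 3.80 CPM, with A216 highest for Pdk3 only. PYY A216, with 2.10% muscle counts, had a leukocyte level of 4.11 log2 CPM, against 1.85 in A220. In the lists, 17 of 18 PPAR targets had higher estimates with PYY (median log2 fold change 0.25), and 7 of 8 genes of the pyruvate dehydrogenase complex list lower (-0.27). Marker RNA differed too, with 17 of 18 muscle (-0.71), 19 of 20 leukocyte (-0.47) and 10 of 10 erythroid markers (-0.79) lower. Adipocyte markers were lower in 6 of 10 (-0.20) and bone-forming cell markers higher in 6 of 10 (0.05), with 0 called in each list. What part these have in the list values was not tested. Slc2a1, the basal glucose transporter, had the smallest unadjusted p of all pathway genes, at 3.26 ± 2.24 CPM with PYY and 1.23 ± 0.287 CPM with saline (log2 1.41 ± 0.63, edgeR adjusted p = 0.989, and 0.77 by limma voom). Hif1a, the hypoxia factor that acts on Pdk1, differed by 0.70 ± 0.32 and the lactate exporter Slc16a3 by -1.22 ± 0.64 (edgeR adjusted p = 0.9999 each).

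In the combination against saline, 5 members differed by less than their SE, which does not show that they were alike: Pdk3 averaged 6.52 CPM with the combination and 9.65 CPM with saline. Ucp3 was the 1 that differed by more than its SE, at 51.4, 29.9, 16.4, 20.5 and 1.89 CPM in combination libraries, against the saline values above. The groups overlapped, and the log2 fold change was -0.74 ± 0.67 (edgeR adjusted p = 1). Without saline A265 it was 0.09 ± 0.64, so the direction rests on that library, and it was -1.22 without combination A248 and -0.44 without A320. The leukocyte covariate gave -1.17. Pathway genes were likewise uncalled, with 16 of 18 PPAR targets (median log2 fold change 0.37) and 10 of 12 pyruvate supply genes (0.20) having higher estimates. So had 15 of 18 muscle (0.23) and 17 of 20 leukocyte markers (0.30). Lower were 9 of 10 bone-forming cell (-1.35), 10 of 10 erythroid (-0.26) and 6 of 10 adipocyte markers (-0.32), with 0 called. Mean levels in log2 CPM went the other way for muscle (9.80 with the combination, 10.14 with saline) and leukocyte markers (3.05 and 3.67). What part these have in the list values was not tested. Ppard, the PPAR most expressed in muscle, averaged 4.34 ± 1.62 CPM with the combination and 2.12 ± 0.896 CPM with saline (log2 1.03 ± 0.48, edgeR adjusted p = 1). Slc25a14, a brain relative of the uncoupling proteins, differed by 0.99 ± 0.54 and the lactate and pyruvate transporter Slc16a1 by -0.52 ± 0.34 (edgeR adjusted p = 1 each).

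Set against semaglutide, the combination had lower mean levels of the same kinases that were higher with semaglutide than with saline, and all 6 members differed by more than their SE. Pdk4 was 375, 158, 121, 386 and 37.8 CPM in combination libraries, against the semaglutide values above. The groups overlapped, with A248 and A318 within the semaglutide range (log2 -1.34 ± 0.69, edgeR adjusted p = 0.816, and -0.88 without semaglutide A240). Pdk2 was 50.2, 97.0, 21.5, 85.1 and 4.49 CPM in combination libraries, from far below every semaglutide library in A320 to within their range in A251 and A318 (log2 -0.97 ± 0.55, edgeR adjusted p = 0.816). Pdk1 was 6.88, 9.84, 4.41, 9.22 and 2.73 CPM (log2 -0.83 ± 0.42, edgeR adjusted p = 0.816). Ucp3 differed by -0.78 ± 0.67 (edgeR adjusted p = 0.847), by -1.26 without combination A248 and by -0.48 without A320.

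Ucp2 and Pdk3 went the other way. Ucp2 was 51.4, 13.5, 209.7, 112 and 272 CPM in combination libraries, with A251 at the low end of the semaglutide values and A253 and A320 above all of them (log2 1.18 ± 0.67, edgeR adjusted p = 0.816). Pdk3 was 4.59, 1.01, 11.7, 3.59 and 11.7 CPM (log2 0.68 ± 0.67, edgeR adjusted p = 0.857). Without semaglutide A241 the differences were 1.84 for Ucp2 and 1.39 for Pdk3, and without combination A320 they were 0.73 and 0.35. Pdk3 was also 0.40, 0.41 and 0.36 without semaglutide A238, semaglutide A243 and combination A253. All 20 leukocyte markers had higher estimates in the combination group than in the semaglutide group (median log2 fold change 0.95) and all 18 muscle markers lower (-0.47), with 0 called. So were 9 of 10 erythroid markers (1.26) and 10 of 10 bone-forming cell markers (1.02) higher, and 7 of 10 adipocyte markers lower (-0.25), again with 0 called. Only leukocyte and muscle levels were used as covariates. With the leukocyte level as a covariate the differences were 0.45 for Ucp2 and 0.25 for Pdk3, while Pdk4, Pdk2 and Pdk1 gave -1.21, -0.98 and -0.71. The muscle covariate gave 0.62 for Ucp2 and 0.15 for Pdk3.

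In the same comparison, all 8 genes of the pyruvate dehydrogenase complex list (median log2 fold change -0.46), 10 of 12 pyruvate supply genes (-0.43), 5 of 6 related carriers (-0.20), 9 of 14 regulators (-0.29) and all 18 PPAR targets (-0.65) had lower estimates with the combination than with semaglutide, and 4 of 6 glucocorticoid response genes higher ones (0.26), with 0 called. Pdpr, the regulatory subunit of the phosphatase that reverses Pdk action, averaged 17.7 ± 8.78 CPM with the combination and 31.2 ± 8.29 CPM with semaglutide (log2 -0.82 ± 0.30, edgeR adjusted p = 0.816). Slc25a5 differed by 0.80 ± 0.30 and Pparg by 1.04 ± 0.48 (edgeR adjusted p = 0.816 each). In the comparison of the combination with PYY no member exceeded its SE. The pathway genes with the smallest p there were Hif1a, with a log2 difference of -0.80 ± 0.32 (edgeR adjusted p = 0.737), the lipoprotein lipase inhibitor Angptl4 with -2.16 ± 1.05 (adjusted p = 0.800), and Slc16a3 with 1.17 ± 0.64 (adjusted p = 0.858).

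Between the single drugs, Pdk2 differed most. Its semaglutide and PYY values, given above, overlapped through PYY A220, and the log2 fold change was 1.38 ± 0.60 (edgeR unadjusted p = 0.0310, adjusted p = 0.257). It was the 1 of 6 members with an unadjusted p under 0.05, a mark reached by 16.9% of all genes in this comparison. Of the bone-forming cell markers, 10 of 10 had lower estimates with semaglutide than with PYY (median log2 fold change -2.29), as had 9 of 10 erythroid markers (-0.72), with 0 called. All 18 muscle markers had higher estimates with semaglutide than with PYY (median log2 fold change 1.46), and the Pdk2 value was 0.40 once the muscle level was a covariate. Pdk3 differed by -1.22 ± 0.71 (edgeR adjusted p = 0.390) and Pdk4 by 0.73 ± 0.72 (edgeR adjusted p = 0.655), which the same covariate took to -0.50 and 0.04. Single libraries moved these too, Pdk3 to -1.94 without semaglutide A241, and Pdk4 to 1.77 without PYY A220, 0.35 without A216, 0.42 without A219 and 0.27 without semaglutide A240. Ucp2 and Ucp3 stayed within their SE.

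Whether Pdk1 was called in this comparison depended on 1 library. With all libraries its log2 fold change was 0.67 ± 0.45 (edgeR adjusted p = 0.470), and without PYY A220, the highest Pdk1 value of all 23, it was 1.51 ± 0.43 (edgeR adjusted p = 0.0402). Without PYY A216 it was 0.41 and without A219 0.43, and the muscle covariate also gave 0.43. Over all alternatives and omissions its adjusted p ran from 0.0402 to 0.949. Omitting A220 also gave 1021 genes called over the whole table, in place of 1. Hif1a averaged 14.7 ± 4.91 CPM with semaglutide and 39.8 ± 12.1 CPM with PYY (log2 -1.44 ± 0.32, edgeR adjusted p = 0.0710). Its adjusted p was 0.0128 without A220 and 0.004 by DESeq2, within a range of 0.004 to 0.350. The glucocorticoid-induced kinase Sgk1 differed by -0.78 ± 0.26 (edgeR adjusted p = 0.169) with an adjusted p of 0.0239 without A220 and a range of 0.0239 to 0.562, and Pparg by -1.47 ± 0.50 (adjusted p = 0.177).

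**Figure D3:**
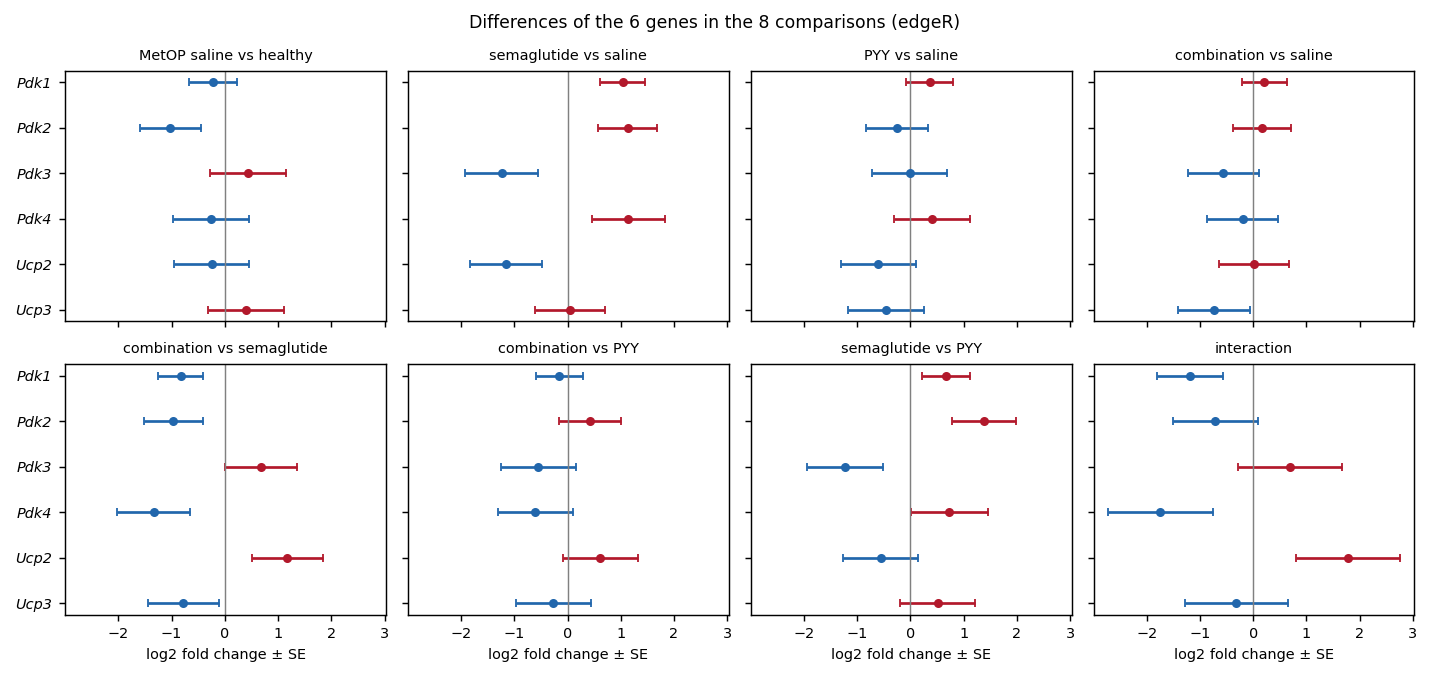
Log2 fold change with its standard error (bars) of each gene in each of the 8 comparisons, red above 0 and blue below. Pdk1, Pdk2 and Pdk4 lie above 0 and Pdk3 and Ucp2 below in semaglutide against saline, all 5 lie on the other side in combination against semaglutide, and no gene passed the test.

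The interaction asks whether the combination departed from the sum of the single-drug log2 differences. Pdk4 gave -1.74 ± 0.98, Ucp2 1.78 ± 0.98 and Pdk1 -1.19 ± 0.62 (edgeR adjusted p = 0.999 each), and the other 3 members were within their SE. Without PYY A220 the estimates were -0.70 ± 0.93 for Pdk4 and -0.35 ± 0.53 for Pdk1, both within their SE. All 20 leukocyte markers had positive estimates (median 1.72) and all 18 PPAR targets negative ones (median -0.85), with 0 called. Estimates were also positive for 10 of 10 erythroid markers (2.07), 10 of 10 bone-forming cell markers (1.22) and 12 of 18 muscle markers (0.24), with 0 called. With the leukocyte level as a covariate the estimates were -0.98 for Pdk4, 0.47 for Ucp2 and -0.66 for Pdk1. The pathway genes with the smallest p were Slc25a5 (0.94 ± 0.43), the glucocorticoid receptor Nr3c1 (-0.57 ± 0.27) and Rxra (-1.28 ± 0.60), each with an edgeR adjusted p of 0.999.

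Compared only with each other across libraries, the 6 genes fell into a set, Pdk1, Pdk2, Pdk4 and Ucp3, and the pair Ucp2 and Pdk3. For each member, many genes outside the 6 had a higher correlation with it than any other member had. The values therefore do not show a grouping particular to these genes. Pearson correlations of log2 CPM over the 23 libraries, given as a description since the points share depth and tissue mix, were 0.82 for Pdk4 with Ucp3, 0.79 for Pdk3 with Ucp2, 0.77 for Pdk2 with Pdk4 and for Pdk1 with Pdk4, 0.75 for Pdk2 with Ucp3, 0.74 for Pdk1 with Pdk2 and 0.49 for Pdk1 with Ucp3. Pdk2 with Pdk3 gave -0.63. The neighbours Ucp2 and Ucp3 gave -0.35.

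Likeness to every other tested gene was measured on the same scale, and the 3 highest are given for each member. Pdk2 was most like Des (r = 0.98), the muscle filament protein desmin, Eef1a2 (0.98), the elongation factor of muscle and neurons, and Synm (0.97), the filament protein synemin. Ucp2 was most like Hba-a1 (0.98) and Hbb (0.98), haemoglobin chains whose counts are uncertain because near-identical copies exist, and Slc4a1 (0.97), the anion exchanger of red cells. Pdk4 was most like Ank3 (0.91), the scaffold ankyrin 3, Gpam (0.90), which starts triglyceride synthesis, and Cpt1b (0.89), the muscle enzyme for fatty acid entry into mitochondria. Ucp3 was most like Palmd (0.92), LOC100362814 (0.86) and the muscle and neuron splicing factor Rbfox1 (0.86). Pdk1 was most like Acad11 (0.91), an acyl-CoA dehydrogenase, the RNA-binding Qki (0.90) and the centromere protein gene Cenpb (0.90). Pdk3 was most like the ribosomal protein gene Rpl3 (0.91), LOC100359583 (0.91) and the choline transporter gene Slc44a1 (0.91).

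The relation to marker RNA was then measured over the 23 libraries for muscle and leukocyte levels, 12 relations in all, with two-sided permutation p-values adjusted over the 12. These p-values come from shuffling over all 5 groups and treat the libraries as separate, exchangeable units, which the labels do not show. Here too the points share depth and tissue mix. Against the muscle level, Pdk2 had r = 0.827 (rho = 0.725, permutation adjusted p = 0.00016 and 0.00048) and Ucp3 r = 0.763 (rho = 0.519, permutation adjusted p = 0.00117 and 0.0185). Without A216 and A320, the libraries farthest from the median, r was 0.508 for Pdk2 and 0.323 for Ucp3. Pdk4 had r = 0.575 (rho = 0.363, permutation adjusted p = 0.00878 and 0.0971) and r = 0.035 without A216 and A320, so its relation to muscle rested on them. Pdk3 went down as muscle went up (r = -0.563, rho = -0.702, permutation adjusted p = 0.00913 and 0.00084, and -0.544 without the pair). For Pdk1 (r = 0.385, rho = 0.351) and Ucp2 (r = -0.341, rho = -0.374) the adjusted permutation p was 0.0746 and 0.110 for r, and 0.102 and 0.0944 for rho. Without A216 and A320 their r was -0.044 and -0.212.

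Against the leukocyte level the pair and the set parted. Ucp2 had r = 0.869 (rho = 0.794) and Pdk3 r = 0.826 (rho = 0.808), each with a permutation adjusted p of 6e-05 for r and 0.00012 for rho. Ucp2 was closer to the erythroid marker Slc4a1 (r = 0.97), and the erythroid level itself was not set against any member. Pdk1 had r = -0.620 (rho = -0.645, permutation adjusted p = 0.00331 and 0.00266) and Pdk2 r = -0.604 (rho = -0.553, permutation adjusted p = 0.00614 and 0.0116). Ucp3 (r = -0.500, rho = -0.472) and Pdk4 (r = -0.497, rho = -0.556) had permutation adjusted p = 0.0198 each for r, and 0.0322 and 0.0116 for rho. Without A238 and A251, the farthest from the median here, r was 0.767 for Ucp2, 0.699 for Pdk3, -0.679 for Pdk1, -0.597 for Pdk2, -0.644 for Ucp3 and -0.725 for Pdk4. All 12 relations kept their sign when each group's mean was taken out. All libraries carry 1 batch label, so no relation could be taken within batches.

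**Figure D4:**
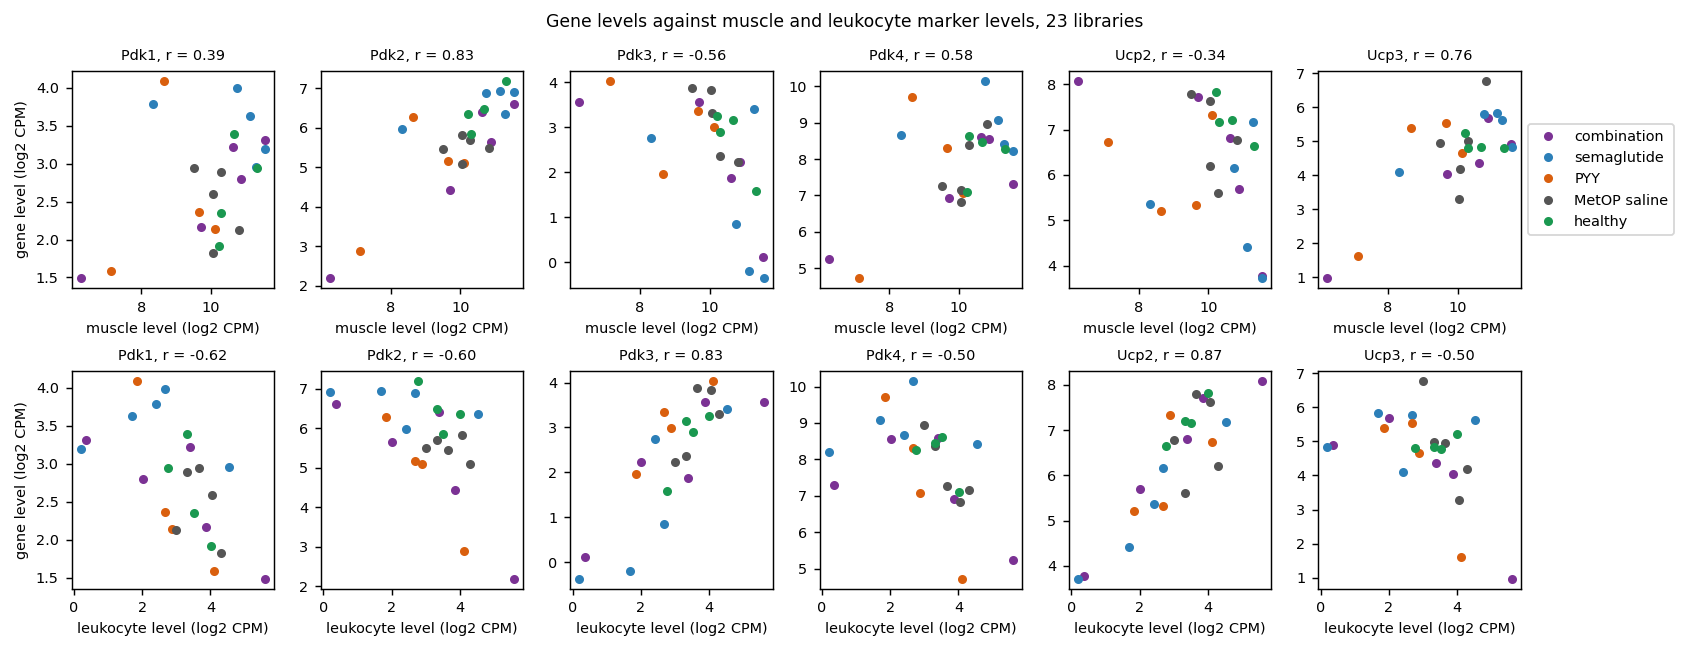
Level of each gene against the mean log2 CPM of the skeletal muscle markers (top) and of the leukocyte markers (bottom), 1 point per library, coloured by group, with Pearson r over 23 libraries. Pdk2 and Ucp3 go up with the muscle level, with combination A320 and PYY A216 at the low end, and Ucp2 and Pdk3 go up with the leukocyte level. Erythroid, adipocyte and bone-forming cell levels were not set against the genes.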

How the data were processed

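Members, gene lists and tests were chosen with earlier results of these data known. The authors deposited raw counts per Ensembl gene and FPKM values for the same libraries, 1 column each. Per the submitters' processing notes, the genome was mRatBN7.2 and the authors ran DESeq2 1.42.0. The aligner and the counter: not given in the sources used here. Per the labels' protocols, libraries were made from poly-A RNA with or without strand marking. The deposited FPKM, used for levels between genes and for shares, follow from the counts with 1 depth per library.

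The count test was edgeR 4.0.16's quasi-likelihood test in R 4.3.3 (TMM factors, filterByExpr by group, robust fit). All 23 libraries entered, each group had its mean, and 18 residual degrees of freedom remained. That left 15271 genes, and p-values were adjusted over all of them by Benjamini-Hochberg. CPM are scaled by TMM factors, and log2 CPM use a prior count of 2. The fit was also run on simulated counts with the same spread for every gene and larger differences than those of the members. That run does not show how the fit performs on these data. A marker level is the mean log2 CPM of a list's tested genes. Of 138 list entries 134 matched by symbol and 132 were tested; Bckdk, Cd36, Myh1 and Mylpf had no match, and Ucp1 and Acot1 too few counts. Named pathway genes are the 3 of smallest p per comparison over 6 pathway lists, and genes like a member are the 3 of highest r. Permutation tests used 100000 resamples, and the smallest p they can give is 1e-05. Alternatives were DESeq2 1.42.0, limma 3.58.1 voom, scaling without mitochondrial genes, no filter, only the groups compared, muscle or leukocyte level as covariate, leaving out each library, and, for shares, counts in place of FPKM.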

Additional observations from a re-analysis of the deposited data

Results flagged for a closer look

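Each value here comes from a library far from the rest of its own group, and chance alone marks about 1 in 20 groups. Pdk1 in PYY A220 was at 16.99 CPM, far above the other 3 PYY libraries. Pdk4 in semaglutide A240 was at 1143 CPM, above the other 4 semaglutide libraries. Ucp3 in saline A265 was at 109.8 CPM, above the other 4 saline libraries, and this library had the highest saline muscle level, 10.8 log2 CPM. Ucp3 in healthy control A387 was at 37.43 CPM, above 3 close healthy values. The muscle marker level of semaglutide A242 was 8.324 log2 CPM, below the other 4 semaglutide libraries, and its Pdk2 and Ucp3 were the lowest of that group.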

How the results depend on the processing

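No paired analysis was possible because the groups share no replicate numbers in the labels. The number of genes called, 0 by edgeR in all comparisons except 1 in semaglutide against PYY, was 47 by DESeq2 for saline against healthy controls, 89, 3 and 2 for semaglutide, PYY and the combination against saline, 12 and 10 for the combination against semaglutide and PYY, 487 for semaglutide against PYY and 3 for the interaction. limma voom called 1 gene for the combination against PYY, and the leukocyte covariate, added after the data were seen, gave 3 for semaglutide against PYY. Leaving out 1 library gave 0 to 1 genes for PYY against saline (1 without PYY A220), 0 to 3 for the combination against semaglutide (3 without combination A251), 0 to 2 for the combination against PYY (2 without A220, 1 without A251) and 1 to 1021 for semaglutide against PYY (1021 without A220, 3 without semaglutide A242). Of the 20 member differences larger than their SE, 140 of 140 values under the other alternatives and 220 of 222 with 1 library left out kept direction and side of the threshold. The exceptions were Ucp3 in the combination against saline, whose log2 fold change ran from -1.22 to 0.09 (0.09 without saline A265), and Pdk1 in semaglutide against PYY, from 0.41 to 1.51. Since no member was called with all libraries, staying uncalled says little. Values counted as kept could fall within their SE. With the muscle covariate, Pdk4 in semaglutide against PYY was 0.04 ± 0.73 and Pdk3 in the combination against semaglutide 0.15 ± 0.64. By limma voom, log2 values over 1.5 times from those of edgeR were -1.56 for Pdk2 and -1.31 for Ucp3 in the combination against semaglutide, -1.90 for Pdk3 in semaglutide against saline, 1.56 for Pdk4 in semaglutide against PYY, 0.77 for Slc2a1 in PYY against saline and 0.54 for Slc25a14 in the combination against saline, and the cause was not tested. Among pathway genes, the muscle covariate gave -0.43 and 0.40 for Slc16a3 in PYY against saline and in the combination against PYY, 0.44 for Hif1a in PYY against saline and 0.47 for Slc25a5 in the combination against semaglutide. The leukocyte covariate gave -0.43, 0.41 and 0.33 for Slc25a5 in semaglutide against saline, the combination against semaglutide and the interaction, and 0.67 for Pparg in the combination against semaglutide. Single libraries moved Errfi1 in saline against healthy controls to 1.09 (without healthy A390), Slc16a1 in the combination against saline to -0.17 (without saline A232), Slc16a3 in the combination against PYY to 0.58 (without combination A251) and, without combination A320, Slc25a5 to 0.53 and Pparg to 0.63 in the combination against semaglutide. Shares from counts differed from those of FPKM in every group, since counts are not divided by length. For Ucp3 they gave 17.1% in place of 12.4% in healthy controls and 47.9% in place of 40.1% with semaglutide. They gave 25.3% in place of 19.7% with saline, 30.7% in place of 24.9% with PYY and 28.5% in place of 23.6% with the combination. In healthy controls the Pdk4 share was 71.6% in place of 63.4% and the Pdk2 share 24.7% in place of 30.8%. Depth limits Pdk3 and Ucp1 most, and a common coefficient of variation of 69.9% limits every test fitted over all 23 libraries. The SE depended on which libraries entered the fit. With only the groups compared, that of Pdk2 was 0.21 in place of 0.55 in semaglutide against saline. In the combination against semaglutide it was 0.61 in place of 0.55.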
